A study of Homo sapiens with 4 samples.

Results

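The BCL2 family decides at the outer mitochondrial membrane whether a cell lives or dies, and 10 of its genes were examined in a colorectal cancer cell line split by its migration. These were the survival genes BCL2, BCL2L1, MCL1 and BCL2A1, the pore-forming effector BAK1 and the BH3-only genes BID, BCL2L11, BIK, BMF and HRK. Probes were assigned to them by the RefSeq record that the array design gives for each probe, which yielded 16 of the 50594 probes on the array and 10 of its 21607 named genes. Of the 16 probes, 13 were well above background on all 4 arrays and covered all 10 genes, while 1 probe each of BCL2, BCL2A1 and BMF was not.

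HCT116 is a human colorectal carcinoma line, here the single parent of both cell types. MG cells had crossed the membrane of a transwell chamber through repeated rounds of migration, and non-MG cells had stayed on its upper side. Each subpopulation received 5 µM 5-azacytidine, a cytidine analog that inhibits DNA methyltransferases, or vehicle (labelled control) for 48 h, and 400 ng of its RNA was labelled with Cy3 and hybridized. There was 1 array per condition, so no single ratio has a replicate or a test. The only test was a fit of cell type and treatment over all 4 arrays together, which has 1 residual degree of freedom.

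Survival members of the family bind and restrain both the effectors and the BH3-only proteins. BH3-only proteins respond to particular stresses, such as loss of attachment, death receptor signalling or withdrawal of growth factors, and either activate the effectors directly or displace them from the survival proteins. The effectors then permeabilize the mitochondrion, which releases cytochrome c and starts the caspase cascade. Much of this control is exerted on the proteins, and arrays measure only RNA.

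All 4 arrays lay on 1 slide, and position on it cannot be told apart from cell type and treatment. The 75th percentile of background-corrected intensity was between 75.2 and 98.7, and detection began at intensities between 9.95 and 11.8, the faintest that the scanner software marked as well above background. Each signal is therefore given as a multiple of the 75th percentile of its own array, called the relative signal, and ratios are on the log2 scale. The spot error of a ratio was taken from probes spotted 10 times on every array, and it covers spotting and scanning only. A change past 1.5-fold, or 0.58 on the log2 scale, was counted as a call. Of the 9 colon epithelial marker genes, 7 were detected (well above background on every array), compared with 1 of 6 for fibroblasts (COL1A1), 2 of 6 for leukocytes (CD14 and CD68) and 1 of 4 for endothelium (VWF). CEACAM5 and VIL1 were the epithelial markers that were not.

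Since 5-azacytidine lowers methylation at CpG dinucleotides, the CpG content of the 250 bases before each transcription start was read from RefSeq promoter sequences (build GRCh38.p14). Of the 10 genes, 8 were matched, with 14 starts. MCL1 and BIK were not matched. A window with at least 15 CpG was present at 9 of the 14 starts, compared with 42.9% of 35116 promoters, whose median was 11. By gene, 6 of the 8 had such a window at any start, a count that favours genes with several starts and has no matching share. BID alone had 5 of the 14 starts, with windows that partly overlap. The counts were 34 for BCL2L11, 24 for BCL2, 22 for HRK, 12 and 17 for BCL2L1, 4 to 30 for the 5 starts of BID, 5 for BAK1 and 2 for BCL2A1. BMF had 0 CpG at one start and 26 at the other. The BCL2 window and both BMF windows are shown because these genes have the probes that disagreed most and the largest ratio. CpG dinucleotides are in capitals, the 3 windows lie on the minus strand and are written 5′ to 3′, at chr18:63319770-63320019 for BCL2, chr15:40108880-40109129 for the CpG-rich BMF start and chr15:40106967-40107216 for the BMF start without CpG. Methylation of these windows was not analysed here, so the letters describe sequence only.
BCL2: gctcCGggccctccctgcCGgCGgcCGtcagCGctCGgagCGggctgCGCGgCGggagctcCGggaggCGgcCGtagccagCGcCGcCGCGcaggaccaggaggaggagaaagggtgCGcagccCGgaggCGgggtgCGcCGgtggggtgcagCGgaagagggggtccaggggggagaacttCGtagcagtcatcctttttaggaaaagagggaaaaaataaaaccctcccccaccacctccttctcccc
BMF, CpG-rich start: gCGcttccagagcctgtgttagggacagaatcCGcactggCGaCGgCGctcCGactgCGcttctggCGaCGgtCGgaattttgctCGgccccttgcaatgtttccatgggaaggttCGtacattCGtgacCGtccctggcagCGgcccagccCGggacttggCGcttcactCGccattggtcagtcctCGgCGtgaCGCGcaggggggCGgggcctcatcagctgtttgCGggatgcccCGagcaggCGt
BMF, start without CpG: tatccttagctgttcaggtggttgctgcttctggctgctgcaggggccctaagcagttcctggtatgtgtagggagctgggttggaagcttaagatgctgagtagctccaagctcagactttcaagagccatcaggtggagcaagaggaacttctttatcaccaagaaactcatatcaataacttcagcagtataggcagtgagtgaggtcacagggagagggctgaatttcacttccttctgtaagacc

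**Figure D1:**
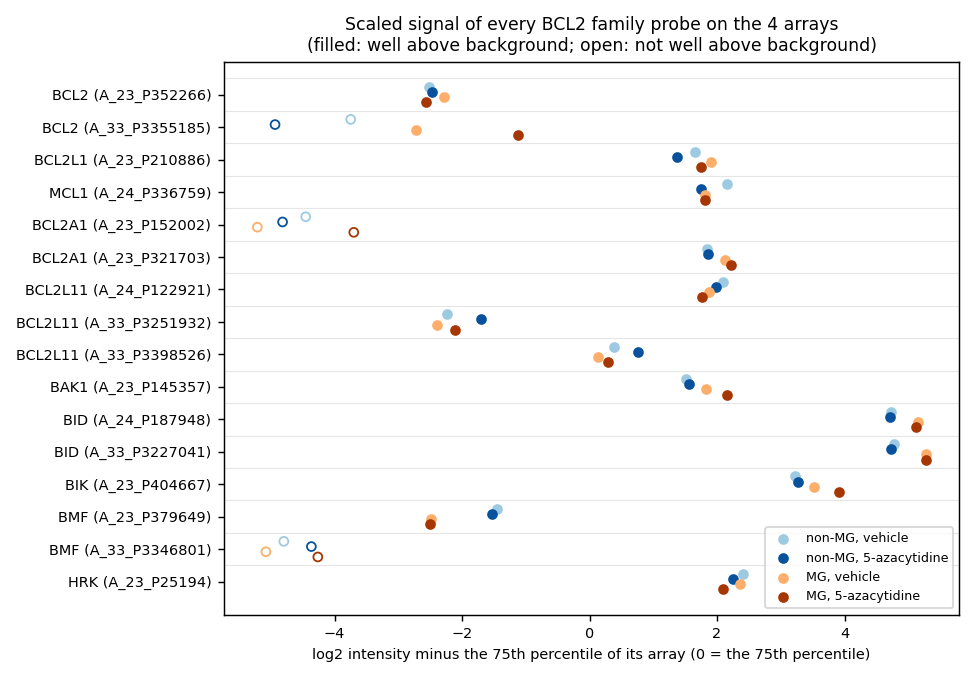
Relative signal of the 16 probes of the family (x axis, log2 intensity minus the 75th percentile of the array) on the 4 arrays, with filled points for probes well above background and open points for those that were not. BMF separated the cell types by about 1 log2 unit in both treatments, and the second BCL2 probe was filled in the MG cells alone.

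With vehicle, MG and non-MG cells differed in this family chiefly by BMF, which was 2.05-fold lower in the MG cells, a call that was lost under normexp background correction. In RNA of whole cultures, fewer cells with a transcript and less of it per cell cannot be told apart. BMF was the only one of the 13 probes past 1.5-fold, with 0 higher and 1 lower, compared with 14.4% of all 19808 probes well above background on all 4 arrays (6.08% higher and 8.27% lower). The median log2 ratio of the 13 probes was 0.23, with 7 above and 6 below 0 and a range from -1.04 to 0.49, compared with a median of -0.01 and a range from -0.72 to 0.63 between the 5th and 95th percentiles of all probes. Centring the arrays on their median instead moved the median of all probes up by 0.20 and turned their split to 14.2% higher and 3.82% lower. The ratios below are relative to the 75th percentile, and a direction that changes with the scaling is named where it occurs.

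With 5-azacytidine, BIK and BAK1 had higher signals in MG than in non-MG cells, by 1.56-fold and 1.51-fold, and BMF was again lower, by 1.98-fold. These were 2 higher and 1 lower of 13 probes, where 13.5% of all probes passed 1.5-fold (6.21% higher and 7.24% lower). The median log2 ratio of the 13 was 0.07 and the range -0.99 to 0.64. Median centring moved the median of all probes up by 0.26 in this comparison, with 19.9% of all probes then higher and 2.57% lower. The pairs of arrays behind the vehicle and the 5-azacytidine ratios are separate. Of the 13 probes, 11 had the same sign in both, all but BCL2 and MCL1, compared with 78.1% of all probes.

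None of the 13 probes passed 1.5-fold after 5-azacytidine in either cell type; the BCL2 beta probe described below, which is not among them, did so in the MG cells. In the non-MG cells 0 of 13 probes passed, compared with 3.83% of all probes (1.94% higher and 1.89% lower), and in the MG cells 0 of 13, compared with 5.29% (3.09% higher and 2.2% lower). The members' log2 ratios of 5-azacytidine over vehicle spanned -0.42 to 0.53 for non-MG cells and -0.29 to 0.40 for MG cells, with medians of -0.02 and 0.00. Signs were alike in both cell types for 10 of the 13 probes, compared with 63.5% of all probes, and the exceptions were BCL2, MCL1 and 1 of the BID probes. Ratios close to 0 changed sign with the processing, namely those of BCL2, BCL2A1, BAK1, BID, BIK and BMF in non-MG cells and of MCL1, BID and BMF in MG cells. These ratios share their vehicle and treated arrays with the comparisons between the cell types.

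A fit over all 4 arrays, with each cell type and each treatment as a term and all 19808 probes in limma, tested what both treatments, or both cell types, had in common. For cell type, 4 of the 13 probes had an adjusted p under 0.05, with 3 higher in MG cells (BAK1 and both BID probes) and 1 lower (BMF), where 21.8% of all probes did so (10.8% higher and 11% lower). BMF had a log2 effect of -1.01 with an SE of 0.11 (limma, adjusted p = 0.012). The effect was 0.52 (SE 0.11, limma adjusted p = 0.028) and 0.42 (SE 0.10, limma adjusted p = 0.043) for the BID probes, and 0.46 (SE 0.12, limma adjusted p = 0.048) for BAK1. Next came BIK at 0.46 (SE 0.13, limma adjusted p = 0.055). Under quantile normalization BMF and 1 BID probe stayed under 0.05 and BAK1 and the other BID probe did not. For treatment, 0 of 13 probes had an adjusted p under 0.05 and 1 an unadjusted p under it, BCL2L11 probe A_33_P3251932, compared with 0.217% and 15.3% of all probes. These p-values rest on 1 residual degree of freedom, take a difference in response between the cell types as error, and measure only the spread between these arrays, which may be technical. That spread is partly pooled over all probes without regard to their intensity. For the dim BMF probe the SE of 0.11 is below the spot error of its single MG/non-MG ratios, 0.28 in each treatment. Its p-value may therefore be too small.

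**Figure D2:**
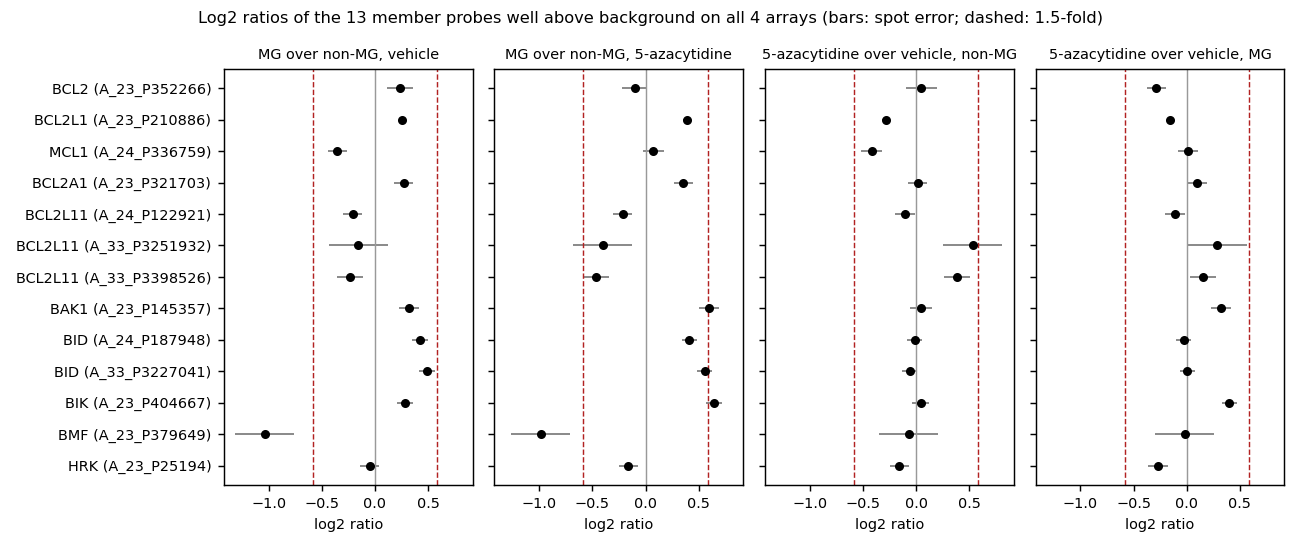
Log2 ratios (x axis) of the 13 probes that were well above background on all 4 arrays, in the 4 comparisons, with bars for the spot error and dashed lines at 1.5-fold. BMF lies beyond the lower line in both comparisons of MG with non-MG cells, and BAK1 and BIK lie just beyond the upper line after 5-azacytidine.

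BCL2, the founding survival gene of the family, was read by 2 probes whose signals did not move together. The probe of the alpha transcript (A_23_P352266) was dim, with relative signals of 0.175 in non-MG cells with vehicle, 0.181 in non-MG cells with 5-azacytidine, 0.206 in MG cells with vehicle and 0.169 in MG cells with 5-azacytidine. The highest and the lowest value were thus both in MG cells. Its MG/non-MG log2 ratio was 0.23 with vehicle and -0.10 with 5-azacytidine (spot error 0.12 in both), and the second changed sign under quantile normalization and under median centring. Treated over untreated, its log2 ratio was 0.05 in the non-MG cells (spot error 0.14), where the sign also changed under both, and -0.29 in the MG cells (spot error 0.09).

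This BCL2 probe was spotted 10 times on each array, which shows the technical scatter of a dim transcript directly. Its spots had relative signals from 0.136 to 0.238 (median 0.170) in non-MG cells with vehicle and from 0.152 to 0.225 (median 0.184) in treated non-MG cells. For MG cells the spots ran from 0.130 to 0.259 (median 0.224) with vehicle and from 0.136 to 0.211 (median 0.168) with 5-azacytidine. The spot ranges overlapped in all 4 comparisons. On each array 7 or 8 spots stood well above background. Among the spots of vehicle-treated MG cells 1, at 0.567, carried the outlier mark of the scanner software and was left out. With all 10 spots kept, the MG/non-MG ratio with vehicle was 0.38 in place of 0.23, and that of 5-azacytidine over vehicle in MG cells was -0.43 in place of -0.29.

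The BCL2 probe of the shorter beta transcript (A_33_P3355185) had 1 spot. Its relative signal was 0.0745 in non-MG cells with vehicle and 0.0327 in non-MG cells with 5-azacytidine, neither well above background, and 0.152 and 0.458 in MG cells with vehicle and with 5-azacytidine, both well above background. For a lower bound, the relative signal of MG cells was divided by the faintest one detected on the non-MG array. This gave 1.31-fold with vehicle and 3.46-fold with 5-azacytidine. The spot errors of 0.67 and 0.26 on the log2 scale belong to the plain ratios, which include the undetected non-MG spots, and not to the bounds. The vehicle bound is short of 1.5-fold, or 0.58 on the log2 scale. It rests on 1 MG spot, in a range of intensity where the median SD between spots was 0.32. The vehicle bound is therefore not a firm limit. In MG cells the signal with 5-azacytidine was 3.03-fold that with vehicle, a log2 ratio of 1.60 (spot error 0.35). The alpha probe, over the same pair of arrays, had a ratio of -0.29. Which of the probes follows BCL2 RNA was not tested.

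BCL2L1, which encodes the survival protein BCL-XL, was higher in the MG cells in both treatments and lower after 5-azacytidine in both cell types. Relative signals were 3.14 and 2.58 on the vehicle and 5-azacytidine arrays of non-MG cells, and 3.76 and 3.37 in the MG cells. The lowest of the 4 arrays was that of non-MG cells with 5-azacytidine. MG/non-MG log2 ratios were 0.26 with vehicle and 0.39 with 5-azacytidine, and those of 5-azacytidine over vehicle were -0.29 in non-MG and -0.16 in MG cells (spot error 0.03 for each). This probe also had 10 spots, all well above background. The spot ranges did not overlap between MG cells (3.25 to 3.56) and non-MG cells (2.37 to 2.79) with 5-azacytidine, nor between the treatments in non-MG cells (2.91 to 3.26 with vehicle). They overlapped between the cell types with vehicle and between the treatments in MG cells, where the vehicle array had spots from 3.10 to 4.17. Every BCL2L1 ratio stayed below 1.5-fold, except that the MG/non-MG ratio with 5-azacytidine reached 0.64 under median centring.

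**Figure D3:**
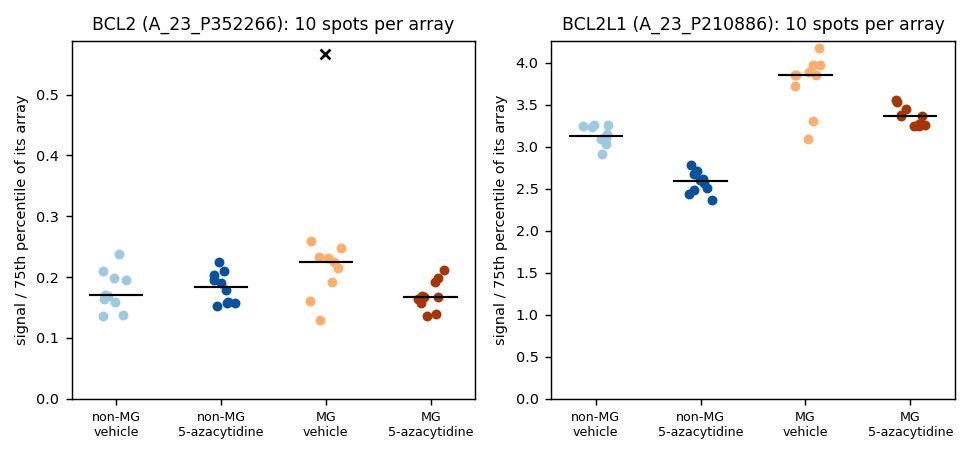
Relative signal (y axis, linear and starting at 0) of the single spots of the BCL2 alpha probe and of the BCL2L1 probe on the 4 arrays, with the median of the spots used as a line and the spot left out as a cross. The BCL2 spots overlap between all arrays compared, while the BCL2L1 spots of non-MG cells with 5-azacytidine lie apart from those of both arrays they are compared with.

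MCL1, a short-lived survival protein that binds BAK1 and BCL2L11, had its highest RNA signal in non-MG cells with vehicle and similar signals on the other arrays. Relative signals were 4.47 in non-MG cells with vehicle, 3.34 in non-MG cells with 5-azacytidine, 3.49 in MG cells with vehicle and 3.52 in MG cells with 5-azacytidine. Between the cell types its log2 ratio was -0.35 with vehicle (spot error 0.09) and 0.07 with 5-azacytidine (spot error 0.10), the second changing sign when the 75th percentile was taken over the probes well above background on all 4 arrays. After 5-azacytidine the ratio to vehicle was -0.42 in the non-MG cells (spot error 0.10), or 1.34-fold lower, and 0.01 in the MG cells (spot error 0.09). The response in MG cells minus that in non-MG cells was 0.43 (spot error 0.13), the largest of the 13 probes, and lay within the 5th to 95th percentile of all probes (-0.47 to 0.52). This difference has no test, since it is the residual of the fit over all 4 arrays.

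BCL2A1, a survival gene induced by NF-κB, was measured by 1 of its 2 probes. Relative signals were 3.60 and 3.64 on the vehicle and 5-azacytidine arrays of non-MG cells, and 4.34 and 4.65 in the MG cells. Both MG arrays were above both non-MG arrays, with log2 ratios of 0.27 and 0.35, and the treatments differed by 0.02 and 0.10 (spot error 0.09 for each). The other probe (A_23_P152002) stayed at background on all 4 arrays.

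BAK1, an effector that forms pores in the outer mitochondrial membrane, had its highest signal in MG cells with 5-azacytidine. Relative signals were 2.85 and 2.94 on the vehicle and 5-azacytidine arrays of non-MG cells, 3.55 in MG cells with vehicle and 4.44 in MG cells with 5-azacytidine. Set against non-MG cells, MG cells had a log2 ratio of 0.32 with vehicle and 0.60 with 5-azacytidine (spot error 0.10 for each). The second passed 1.5-fold by less than the spot error, and it was 0.54 under quantile normalization and 0.51 with the 75th percentile over the probes well above background on all 4 arrays, both short of it. 5-Azacytidine over vehicle was 0.05 in non-MG cells, with a sign that changed under normexp correction and median centring, and 0.32 in MG cells.

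Of the BH3-only genes, BID carries death receptor signals to the mitochondrion once caspase 8 has cleaved its protein. It was higher in the MG cells by both of its probes. Relative signals of one probe (A_24_P187948) were 26.4 and 26.1 on the vehicle and 5-azacytidine arrays of non-MG cells and 35.4 and 34.7 in the MG cells. The other (A_33_P3227041) had 27.5 and 26.4 in the non-MG cells and 38.6 and 38.7 in the MG cells. Both probes separated the cell types in the same way and hardly moved with treatment. The MG/non-MG log2 ratios were 0.42 and 0.49 with vehicle and 0.41 and 0.56 with 5-azacytidine, and those of 5-azacytidine over vehicle lay between -0.06 and 0.00 (spot error 0.07 for each). None passed 1.5-fold, while under median centring both probes passed it in both comparisons of the cell types, with ratios from 0.62 to 0.81, and under normexp probe A_33_P3227041 passed it in both, with 0.61 and 0.73. The probes of BID differed by at most 0.15 in any comparison.

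BCL2L11, the gene of BIM, which activates BAK1 and binds every survival protein of the family, had 3 measured probes. Relative signals of the first probe (A_24_P122921) were 4.24, 3.95, 3.67 and 3.40 in non-MG cells with vehicle, non-MG cells with 5-azacytidine, MG cells with vehicle and MG cells with 5-azacytidine. In the same order they were 1.30, 1.70, 1.10 and 1.23 for a second probe (A_33_P3398526) and 0.213, 0.308, 0.191 and 0.233 for the other (A_33_P3251932), both designed to another transcript record than the first. Each probe was lower in MG than in non-MG cells in both treatments, with log2 ratios from -0.24 to -0.16 with vehicle and from -0.47 to -0.22 with 5-azacytidine, although under median centring probe A_33_P3251932 with vehicle and probe A_24_P122921 with 5-azacytidine were above 0. With treatment the probes parted. The first had ratios of 5-azacytidine over vehicle of -0.10 in non-MG and -0.11 in MG cells (spot error 0.09), while the second probe had ratios of 0.39 and 0.16 (spot error 0.12) and the other of 0.53 and 0.29 (spot error 0.28). None passed 1.5-fold.

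BIK, a BH3-only protein located mainly at the endoplasmic reticulum, had its highest signal in MG cells with 5-azacytidine. Relative signals were 9.37 and 9.66 on the vehicle and 5-azacytidine arrays of non-MG cells, 11.4 in MG cells with vehicle and 15.1 in MG cells with 5-azacytidine. This is the same order of arrays as for BAK1. Between the cell types the log2 ratio was 0.29 with vehicle and 0.64 with 5-azacytidine (spot error 0.08 for each), and the second was 0.56 both under quantile normalization and with the percentile over well-measured probes, just short of 1.5-fold. 5-Azacytidine over vehicle was 0.04 in non-MG cells (spot error 0.08) and 0.40 in MG cells (spot error 0.07), a difference in response of 0.36 (spot error 0.11) that was not tested and lay within the 5th to 95th percentile of all probes. For BAK1 this difference was 0.28 (spot error 0.14).

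BMF is held at the cytoskeleton by its protein's binding to dynein light chain and is known as a mediator of anoikis, the death of epithelial cells that lose attachment. Relative signals were 0.365 and 0.348 on the vehicle and 5-azacytidine arrays of non-MG cells, and 0.178 and 0.176 in the MG cells. Both MG arrays were below both non-MG arrays, and the treatments hardly differed within a cell type. The MG/non-MG log2 ratio was -1.04 with vehicle and -0.99 with 5-azacytidine, and those of 5-azacytidine over vehicle were -0.07 in non-MG and -0.02 in MG cells (spot error 0.28 for each). The probe was dim, with intensities of 31.8 and 26.2 in non-MG cells, where the faintest detected signals were 10.04 and 9.95, and of 17.6 and 16.9 in MG cells, where they were 11.5 and 11.8. Under normexp correction with an offset of 50, which draws dim signals together, the MG/non-MG ratio was -0.34 in both treatments and did not pass 1.5-fold. It passed under the other 4 ways of processing the values, with ratios from -1.07 to -0.73. The other BMF probe (A_33_P3346801) stayed at background on all 4 arrays, so the BMF difference rests on 1 probe with 1 value per array.

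The profile of BMF had the widest range of the 13 probes over the 4 arrays, 1.06 on the log2 scale. The named genes with the nearest profiles, each centred on its own mean, were BCL6, a transcriptional repressor, and the long non-coding RNAs LINC-PINT and NHSL1-AS1, at Euclidean distances of 0.06, 0.06 and 0.07 over 4 arrays. BCL6 had MG/non-MG log2 ratios of -1.06 with vehicle and -0.96 with 5-azacytidine, from relative signals of 6.03 and 5.85 in the non-MG cells and 2.89 and 3.01 in the MG cells. Within a distance of 0.2 lay 64 probes. These distances are below the spot error of a BMF ratio, 0.28 on the log2 scale, so which genes rank nearest is not firm.

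HRK, a BH3-only protein that binds BCL2 and BCL-XL, differed little between the cell types. Relative signals were 5.31 and 4.76 on the vehicle and 5-azacytidine arrays of non-MG cells, and 5.13 and 4.26 in the MG cells. Both treated arrays were lower than both vehicle arrays, by 0.16 in non-MG and by 0.27 in MG cells on the log2 scale (spot error 0.09). The MG/non-MG log2 ratios were -0.05 and -0.16, and both were above 0 under median centring, the first also under normexp.

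**Figure D4:**
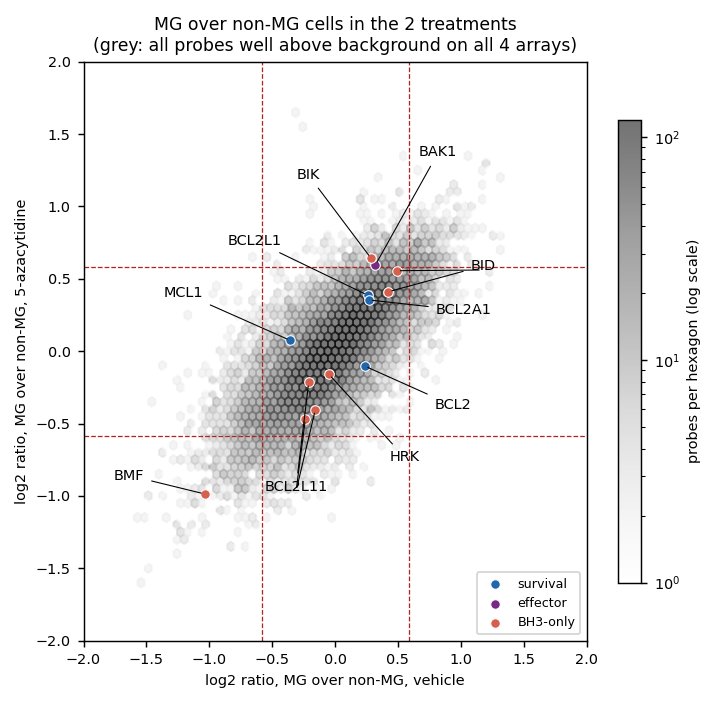
MG/non-MG log2 ratio with vehicle (x axis) and with 5-azacytidine (y axis), with the 13 probes of the family as coloured points over the density of all 19808 probes in grey and dashed lines at 1.5-fold; 41 probes lie outside the axes. BMF lies beyond the lower line on both axes, BAK1 and BIK beyond the upper line with 5-azacytidine alone, and the remaining members within the dashed lines.

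The wider apoptosis pathway was followed through 59 further genes, of which 51 had a probe well above background on all 4 arrays (71 probes). With vehicle, 5 of the 71 probes were higher and 6 lower in the MG cells (4 and 5 genes), compared with 6.08% and 8.27% of all probes, and the median log2 ratio was 0.07, compared with -0.01. With 5-azacytidine 11 probes were higher and 3 lower (9 and 2 genes), compared with 6.21% and 7.24% of all probes, and the median was 0.17, compared with 0.02. After 5-azacytidine 1 probe was higher and 2 were lower in the non-MG cells, compared with 1.94% and 1.89%, and 3 were higher and 1 lower in the MG cells, compared with 3.09% and 2.2%, with medians of -0.08 and 0.04 where those of all probes were -0.04 and -0.02. A gene was counted where any of its probes passed 1.5-fold, which favours genes with several probes, so the shares of all probes are to be read against the probe counts. No call on these lists was tested.

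Among 11 measured genes related to BCL2 (15 probes), 0 were higher and 2 lower in MG cells with vehicle (0 and 3 probes, where 6.08% and 8.27% of all probes were), and 2 were higher and 2 lower with 5-azacytidine (3 and 3 probes, where 6.21% and 7.24% were). BNIP3 and BNIP3L, mitochondrial proteins with a BH3-like stretch that act in mitophagy and are induced by hypoxia, were the lower genes. The MG/non-MG ratio was -1.07 and -0.79 for BNIP3 and -0.89 and -0.78 for the lower BNIP3L probe. BAX, the effector that acts beside BAK1, had MG/non-MG log2 ratios of 0.55 and 0.03 for its 2 probes with vehicle, and 1.33 and 0.70 with 5-azacytidine. Relative signals of one probe (A_23_P208706) were 19.0 and 12.6 on the vehicle and 5-azacytidine arrays of non-MG cells and 27.7 and 31.5 in the MG cells, so the non-MG array with 5-azacytidine was the lowest. BAX after 5-azacytidine had a ratio of -0.60 in the non-MG cells by this probe and of -0.01 by the other, and in the MG cells of 0.18 and 0.67. The ratios of 0.70 and 0.67 of the other probe passed 1.5-fold by less than their spot error of 0.16.

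Death receptor genes were represented by 9 measured genes (10 probes), with 1 higher and 1 lower in MG cells with vehicle (2 and 1 probes, against the same 6.08% and 8.27%) and 1 higher and 0 lower with 5-azacytidine (2 and 0 probes, against 6.21% and 7.24%). The higher one was FAS, the receptor whose signal reaches BID through caspase 8. Its 2 probes had relative signals of 0.756 and 0.542 in vehicle-treated non-MG cells, 0.760 and 0.702 in the treated non-MG cells, 1.27 and 0.947 in MG cells with vehicle and 1.70 and 2.32 in MG cells with 5-azacytidine. Both probes were highest in MG cells with 5-azacytidine. The MG/non-MG log2 ratios were 0.74 and 0.80 with vehicle and 1.17 and 1.73 with 5-azacytidine, and in the MG cells 5-azacytidine over vehicle gave 0.43 and 1.29. TNFRSF10D, a decoy receptor for TRAIL, was the lower gene, at -0.78 with vehicle.

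Caspases and the mitochondrial death machinery (15 measured genes, 23 probes) had 2 genes higher and 0 lower in MG cells with vehicle, by 1 probe each where 6.08% and 8.27% of all probes passed, and 4 higher and 0 lower with 5-azacytidine, again by 1 probe each where 6.21% and 7.24% passed. In this list 0 of 15 genes (0 of 23 probes) passed 1.5-fold after 5-azacytidine in either cell type. Of all probes 3.83% passed in non-MG and 5.29% in MG cells, so 0 of 23 is near those shares. CASP8, the caspase activated at death receptors, was among the higher genes, with MG/non-MG log2 ratios of 0.67 and 1.02 (spot error 0.18 and 0.22). Its probe was dim, with relative signals from 0.36 to 0.74, and the vehicle ratio passed 1.5-fold by less than its spot error. Of 6 measured inhibitors of apoptosis (8 probes), BIRC3, an ubiquitin ligase induced by NF-κB, was the one that passed 1.5-fold in any comparison. BIRC3 did so by 1 probe, where 3.83% to 14.4% of all probes passed in a comparison. Its relative signals were 3.84 and 6.92 on the vehicle and 5-azacytidine arrays of non-MG cells and 2.47 and 10.1 in the MG cells. BIRC3 was higher on both treated arrays, by 0.85 in non-MG and by 2.03 in MG cells on the log2 scale, and its MG/non-MG ratio was -0.63 with vehicle and 0.55 with 5-azacytidine.

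Upstream regulators of the family (10 measured genes, 15 probes) had 1 gene higher and 1 lower in MG cells with vehicle, and 2 higher and 0 lower with 5-azacytidine, by 1 probe each beside the same shares of all probes. E2F1, a transcription factor of the cell cycle, was higher at 0.88 with vehicle, and FOXO3, a transcription factor known to induce BCL2L11, was lower at -0.85 by 1 of its 3 probes, with the other probes at -0.49 and -0.43. Under median centring all MG/non-MG ratios in these lists rise by the shifts given above.

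**Figure D5:**
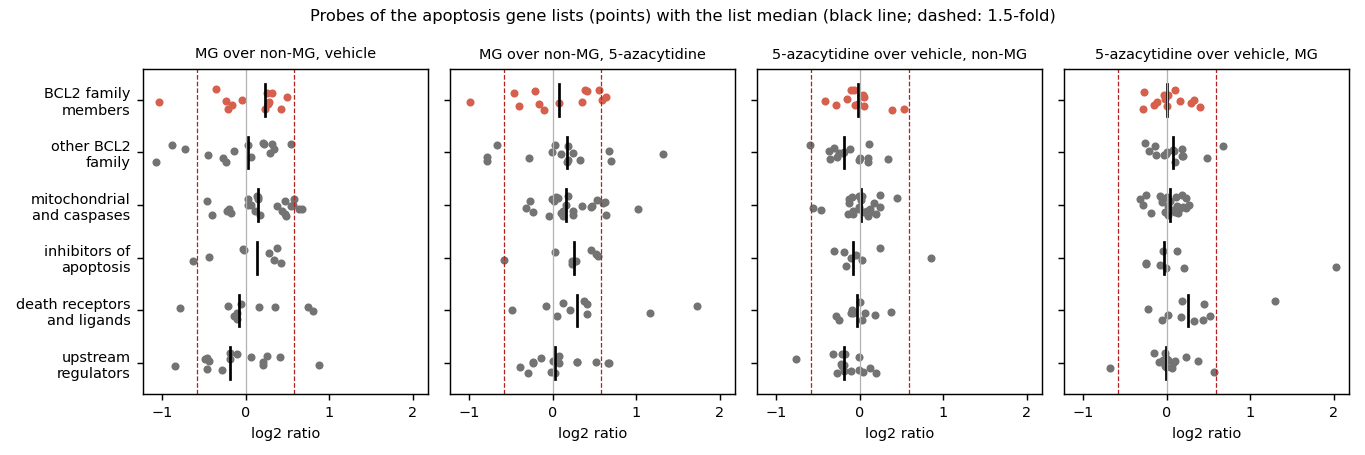
Log2 ratios (x axis) of the 13 probes of the family and of the 71 probes of 5 further apoptosis lists (points), with the median of each list as a black line and dashed lines at 1.5-fold. FAS and BAX lie far right in the MG/non-MG ratio with 5-azacytidine, and BIRC3 and FAS far right in 5-azacytidine over vehicle in MG cells.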

How the data were processed

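RNA of MG and non-MG HCT116 cells was hybridized to 4 one-colour Agilent arrays on 1 slide. The authors deposited Agilent Feature Extraction output, in which each spot has a background-corrected intensity on a linear scale with no normalization between arrays, and a table of log2 values centred on each probe's median over the arrays, which served as an alternative. The methods name GeneSpring with filters on percentile and flags. For RNA extraction the labels give RNAiso Plus, while an RNeasy kit is given in the methods.

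Control spots and outlier spots were left out, which removed 5 of 50599 probes. Spots of a probe were averaged, log2 was taken, and the 75th percentile of the array was subtracted. Probe names came from matching their records to RefSeq genes (GRCh38.p14), and probe coordinates are left out since the design used an older build. Where a probe was not well above background on 1 of the arrays compared, a bound replaces the fold. Precision is limited by the number of arrays, 4, and saturated spots numbered 0. Spot error is the median SD between spots of 847 probes spotted 10 times, within ranges of intensity, combined over both arrays and divided by the root of the number of spots of the probe.

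The members, lists and settings were chosen with earlier results of these data known. All 10 members are named with every probe; of the lists, genes past 1.5-fold are named, at most the 6 largest per comparison; for the probe with the widest range, the 3 genes of nearest profile are named. Named genes are also given in further comparisons. One list gene that passed 1.5-fold is counted and not reported here by name. Alternatives were normexp (offset 50, on the spot median, because the files used hold no spot mean), quantile normalization, median centring, the percentile over probes well above background on all 4 arrays, looser filters, 2-fold and 1.4-fold thresholds and the authors' log2 values. The counting and the limma fit of cell type and treatment over all 4 arrays (eBayes, Benjamini-Hochberg adjustment over all 19808 probes, added after the data were seen) were tested on simulated data. With spot error as the only noise, counting recovered 198 of 200 probes changed 2-fold and called 149 unchanged probes. With 4-fold changes it recovered 200 and called 138 unchanged ones. The limma simulation drew noise without regard to intensity, so it does not cover dim probes such as that of BMF. Software was Python 3.11.15 with pandas 2.3.3, numpy 2.4.6 and, for figures, matplotlib 3.10.9, and limma 3.58.1 in R 4.3.3.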

Additional observations from a re-analysis of the deposited data

How the results depend on the processing

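The counts of the 13 probes past 1.5-fold were small and moved with the processing. For the cell types compared with vehicle the count was 1, and it was 3 with median centring (2 higher and 1 lower), 2 with probes well above background on at least 1 of the 2 arrays, 3 with no filter and 2 at 1.4-fold. Under normexp it was again 1, but that was a BID probe, higher, and BMF was lost. Of all probes, 14.2% were higher and 3.82% lower under median centring, and 3.1% and 2.1% under normexp. With 5-azacytidine the count was 3, and it was 7 with median centring (6 higher and 1 lower), 1 with quantile normalization, 1 with the percentile over well-measured probes, 5 with no filter and 0 at 2-fold. Under normexp it was 3 with 0 lower. For 5-azacytidine over vehicle the count of 0 in non-MG cells was 1 with the percentile over well-measured probes, 1 with no filter and 1 at 1.4-fold, and the count of 0 in MG cells was 1 with probes well above background on at least 1 of the 2 arrays and 3 with no filter. With that percentile 2.91% of all probes were higher and 1.17% lower in non-MG cells. No share of all probes is given for the looser filters and the other thresholds. The looser filters admit more probes, and the other thresholds change what is counted. Median centring and the percentile over well-measured probes move every ratio of a comparison by the same amount. The cause of the shifts under normexp and quantile normalization was not tested. The authors' log2 values gave the same counts. Of 260 recomputed single ratios 197 moved by less than the spot error and 63 by more, and 27 changed sign, each from a ratio of at most 0.22 in size. Dim probes such as those of BMF and BCL2 are limited by their signal over background. The labels give no replicate numbers, so no replicate block could be fitted, but the treatments pair the cell types. The fit of both over all 4 arrays was chosen after seeing the data. For cell type it called 4 probes, where 21.8% of all probes were called. Under normexp it called 7 (6 higher and 1 lower), where 27.9% of all probes were. Under median centring it also called 7 (6 higher and 1 lower), where 38.9% were, and under quantile normalization 2, where 18.3% were. For treatment it called 0 under each setting, where 0.162% to 0.636% of all probes were called. The limma adjusted p of BMF ranged from 0.0047 to 0.019 over these settings. Leaving out an array leaves no residual degrees of freedom, so that was not run.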
